A study of Homo sapiens with 15 samples.

Results

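Genes of the stromal matrix, its proteases and stromal cytokines form a group of 43 among the 20468 genes in the deposited tables, and their expression was compared across the culture conditions of 2 human myeloma lines. The 43 members were chosen by symbol, as genes that fibroblast-like marrow stroma is known for, and with earlier results of these data known. Each has a row in the table of each line. MM.1S and RPMI8226 are established myeloma lines, and HS5 is an established human marrow stromal line. Myeloma cells were cultured for 48 h alone (MONO), in the upper insert of a transwell coculture (TSW), or in its lower chamber in contact with HS5 cells (CO). The lower chamber under the insert held HS5 and myeloma cells, so TSW cells shared medium with both. They were sorted as CD90-CD38+ cells before RNA isolation, and MM.1S had 3 libraries per condition and RPMI8226 had 2, which makes 15. In CO the sort was the step that separated the myeloma cells from HS5 cells, so RNA carried over from HS5 limits CO as a measure of myeloma expression of these genes.

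Marrow stromal cells lay down collagens, fibronectin and small proteoglycans, and they remodel this matrix with metalloproteinases that tissue inhibitors hold in check. They also secrete IL6, LIF and chemokines, and IL6 is a growth and survival factor for myeloma cells. Myeloma cells bind the matrix through integrins and CD44, and receptors on their surface receive the stromal cytokines.

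Expression was deposited as log2(RPKM + 1), and all levels here are RPKM, in which fragments, counted as pair-end tags (PETs), are scaled to transcript length and to the PETs on genes in the library. Library totals ranged from 9008962 PETs in replicate 1 of MM.1S MONO to 19050749 in replicate 2 of the same condition. For a transcript of 2 kb, 1 PET amounted to 0.0262 to 0.0555 RPKM, and 25.3% to 33.1% of the genes had no PET in a given library. Replicate 1 of MM.1S MONO stood apart, with a mean distance of 43.8 to the other MONO libraries of MM.1S on log2(RPKM + 1), where replicates 2 and 3 had 34.9 and 35.0. Tests of MM.1S against MONO are therefore given with and without that library. The replicates are not stated to be separate cultures, so p-values measure the spread between these samples. Fold changes against a condition without a PET were computed against 3 PETs per library and are lower bounds, and intervals and bounds cover counting error only.

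A member was counted as silent without contact when its mean RPKM was under 0.1 in MONO and TSW of both lines. By that limit 24 members were silent, 17 had transcript in myeloma cells cultured without contact, and 2, CXCL1 and POSTN, were listed at 0 in all 15 libraries. EIF4A1, which every cell uses, was also listed at 0 in all of them, so nothing is said of the expression of CXCL1 and POSTN. The member just inside the limit was MMP14, at 0.0988 RPKM in its highest MONO or TSW mean, and just outside it were COL6A1 at 0.103 and COL5A2 at 0.125 RPKM. With a limit of 0.05 RPKM 21 members were silent, and with a limit of 0.5 RPKM 31 were. Of the 24 silent members, 10 had 0 PETs in every MONO and TSW library of both lines.

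**Figure D1:**
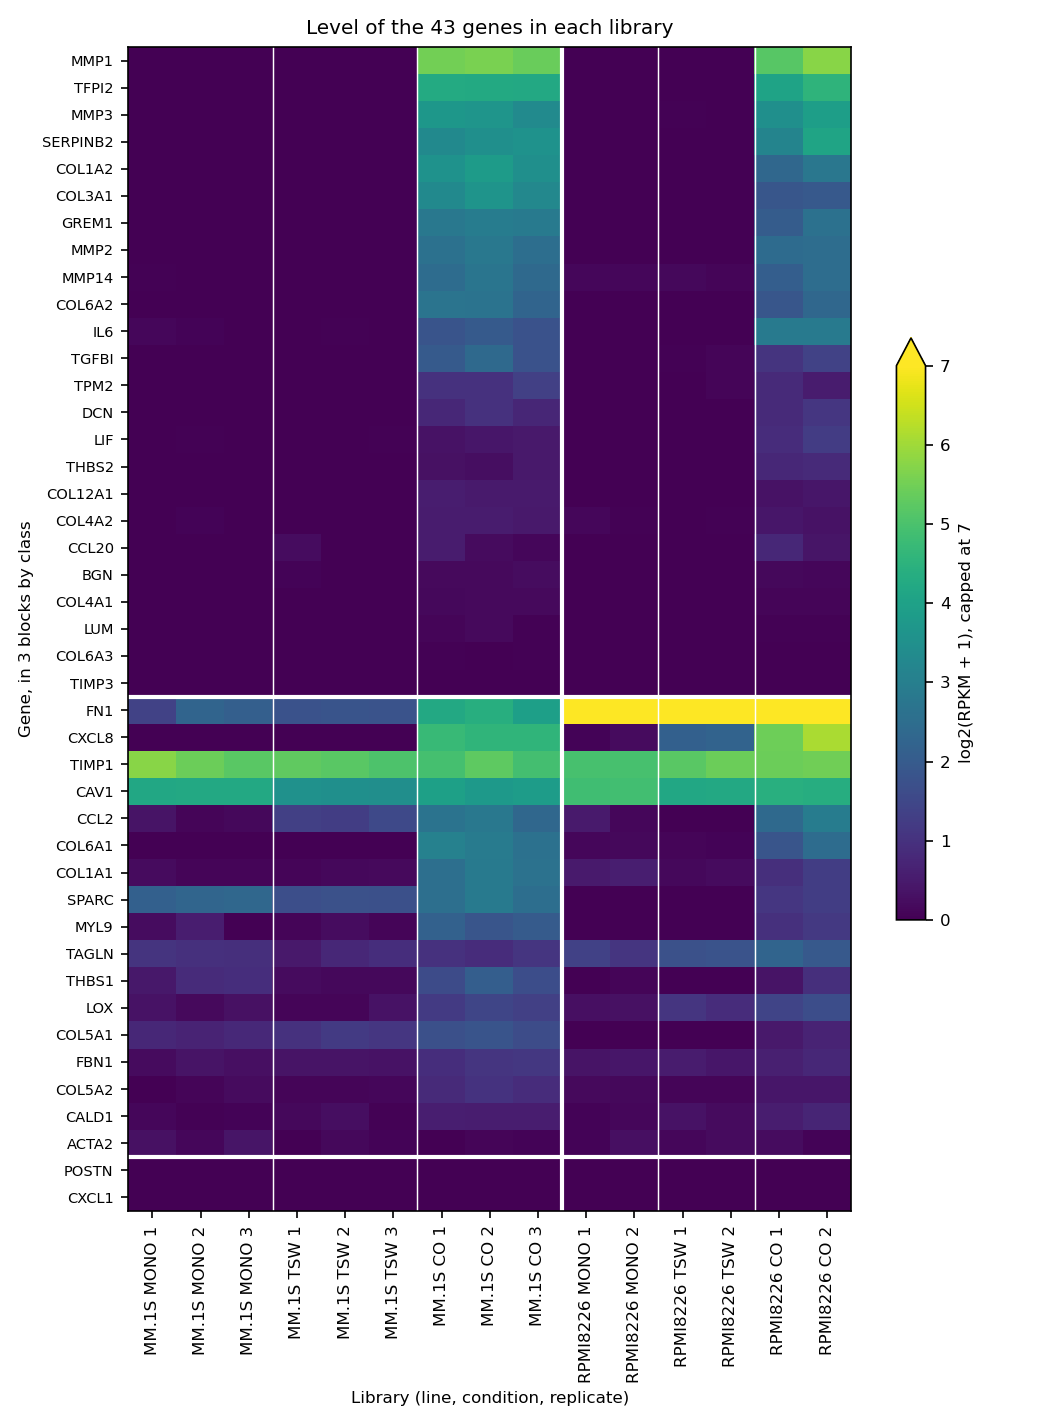
Each row is a member and each column a library, and color gives log2(RPKM + 1), capped at 7 so that FN1 in RPMI8226 does not compress the scale. The upper block holds the 24 silent members, 22 of which had PETs in CO of both lines, the middle block the 17 members with transcript without contact, and the lower block the 2 members listed at 0.

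Promoters are shown for 4 members, of which CXCL8, IL6 and CCL20 are secreted cytokines and chemokines with PETs in CO of both lines, CCL20 with few, and FN1 had a level that separated the lines. RefSeq promoters on GRCh38.p14, from 250 bases before to 50 bases after the start, were available for 29 of the 43 members. The members without an entry were COL1A1, COL1A2, COL3A1, COL5A2, COL6A1, MMP1, MMP2, MMP3, MYL9, TAGLN, LUM, DCN, LIF and CCL2. The following sequences run 5′ to 3′ on the strand of the gene, and capitals mark matches on either strand to GGNNTTTCC (NF-kappaB-like), TGAGTCA (AP-1) and TGACGTCA (cAMP response element). The core promoter motif TATAAA was searched too, on both strands, and is left in lower case, and none of the 4 motifs contains another. CXCL8 lies on the plus strand at chr4:73740319-73740618, IL6 on the plus strand at chr7:22726950-22727249, CCL20 on the plus strand at chr2:227813592-227813891, and FN1 on the minus strand at chr2:215436019-215436318.
CXCL8: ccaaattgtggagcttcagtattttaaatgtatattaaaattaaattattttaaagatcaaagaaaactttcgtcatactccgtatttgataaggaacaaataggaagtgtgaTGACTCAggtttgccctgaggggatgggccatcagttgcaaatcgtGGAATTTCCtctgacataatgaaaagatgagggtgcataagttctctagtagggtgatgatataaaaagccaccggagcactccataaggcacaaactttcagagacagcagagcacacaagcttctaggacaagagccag
IL6: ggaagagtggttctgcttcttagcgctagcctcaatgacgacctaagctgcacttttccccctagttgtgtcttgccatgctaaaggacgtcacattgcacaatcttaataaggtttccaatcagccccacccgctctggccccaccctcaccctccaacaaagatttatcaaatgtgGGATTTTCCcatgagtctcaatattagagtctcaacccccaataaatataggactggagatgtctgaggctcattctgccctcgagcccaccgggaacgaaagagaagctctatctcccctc
CCL20: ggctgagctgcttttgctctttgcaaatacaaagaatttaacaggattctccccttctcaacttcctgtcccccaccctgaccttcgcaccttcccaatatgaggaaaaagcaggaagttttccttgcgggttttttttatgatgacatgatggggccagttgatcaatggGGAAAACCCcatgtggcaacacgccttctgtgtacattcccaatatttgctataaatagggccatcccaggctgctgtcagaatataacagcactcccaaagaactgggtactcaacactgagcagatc
FN1: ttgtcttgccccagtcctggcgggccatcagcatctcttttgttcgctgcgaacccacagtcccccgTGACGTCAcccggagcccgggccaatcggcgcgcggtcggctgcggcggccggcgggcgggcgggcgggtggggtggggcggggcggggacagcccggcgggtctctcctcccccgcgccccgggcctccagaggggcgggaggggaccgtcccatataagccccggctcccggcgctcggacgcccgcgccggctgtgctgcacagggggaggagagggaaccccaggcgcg

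In CXCL8 the GGNNTTTCC match began 91 bases before the start, the TGAGTCA match 137 bases before it on the opposite strand, and TATAAA 31 bases before it. IL6 had GGNNTTTCC at 72 bases before the start. CCL20 had GGNNTTTCC at 79 bases on the opposite strand and TATAAA at 29 bases, and FN1 had TGACGTCA at 183 bases. Of 35116 RefSeq promoters of this length, 6.26% hold GGNNTTTCC, 4.95% TGAGTCA, 1.85% TGACGTCA and 11.5% TATAAA. Of the 40 promoters of the 29 members, 7 held GGNNTTTCC, 2 TGAGTCA, 1 TGACGTCA and 7 TATAAA. By gene, GGNNTTTCC was present in 6 (CCL20, CXCL1, CXCL8, FBN1, IL6 and TPM2), TGAGTCA in 2 (CXCL8 and POSTN), TGACGTCA in 1 (FN1) and TATAAA in 7 (CALD1, CCL20, COL6A2, CXCL8, POSTN, SERPINB2 and THBS2). These matches describe letters in the window and were not tested against expression.

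The silent members summed to 0.115, 0.136 and 0.0128 RPKM in the MONO libraries of MM.1S and to 0.224, 0.0436 and 0.0330 RPKM in those of TSW. In CO of MM.1S the sum was 134, 146 and 126 RPKM, a mean of 135.5 ± 10.3 (SD, n = 3), from 6602, 7024 and 5325 PETs. RPMI8226 had sums of 0.192 and 0.132 RPKM in MONO, 0.206 and 0.261 in TSW, and 101 and 146 in CO, a CO mean of 123.6 ± 31.2 (SD, n = 2). In both lines MONO and TSW were near 0 in every library, and every CO library was far above them. In a bulk sample, fewer cells of a type and less RNA per cell cannot be told apart. By role, metalloproteinases made up 65.2 ± 5.58 RPKM of the CO sum in MM.1S and 65.0 ± 16.7 in RPMI8226. Protease inhibitors followed with 28.2 ± 0.578 and 31.0 ± 10.4 RPKM, and silent fibrillar collagens with 21.1 ± 3.13 and 7.73 ± 1.39 RPKM. The IL6 family cytokines gave 2.96 ± 0.291 RPKM in MM.1S CO and 7.45 ± 0.252 in RPMI8226 CO. MMP1 alone carried 33.2%, 32.1% and 32.6% of the summed RPKM in the CO libraries of MM.1S and 34.6% and 36.6% in those of RPMI8226.

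**Figure D2:**
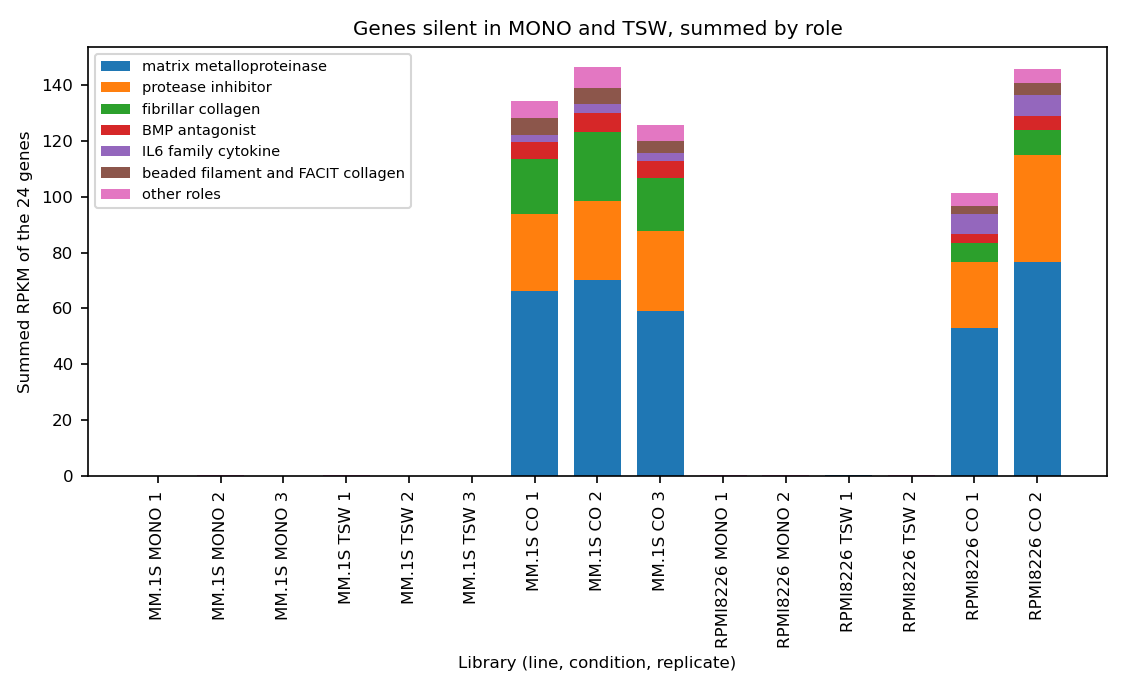
Stacked bars give the summed RPKM of the 24 silent members in each library, split by role, with the smaller roles pooled. The 3 CO bars of MM.1S reach 126 to 146 RPKM and the 2 of RPMI8226 reach 101 and 146, and bars of MONO and TSW stay below 0.3.

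Other stromal markers that were silent without contact also had higher sums in CO. The sum of the whole list in CO overlapped MONO and TSW in MM.1S, and in RPMI8226 it lay above MONO and below TSW. Choosing markers for low levels in MONO and TSW favors a higher level in CO, so the silent markers are given as a description. From a separate list of 43 stromal markers, 23 were silent in MONO and TSW by the same limit, 1 of these had no PET in any library, and 19 of the rest had a higher mean in CO than in MONO and TSW of both lines. The silent markers summed to 0.143 to 0.371 RPKM in the MONO and TSW libraries of MM.1S and to 13.9, 17.9 and 14.3 RPKM in CO. RPMI8226 had marker sums of 0.0722 to 0.191 RPKM without contact and of 7.30 and 14.4 RPKM in CO. Genes of the whole list at 0 numbered 16 to 22 per MONO or TSW library of MM.1S and 4, 5 and 2 in CO, and 19 to 24 without contact and 7 and 3 in CO of RPMI8226. The whole list summed to 654, 518 and 430 RPKM in MONO, 456, 433 and 438 in TSW and 349, 474 and 396 in CO of MM.1S, and LGALS1, a galectin that myeloma cells express too, was the most abundant gene of the list in each library. In RPMI8226 these sums were 1112 and 1140 RPKM in MONO, 1790 and 1989 in TSW, and 1377 and 1579 in CO, with S100A4, a calcium-binding protein, as the most abundant gene of the list. Among defining markers, THY1, which encodes CD90, the marker the sort selects against, was at 0.570, 0.489 and 0.453 RPKM in MM.1S CO and at 0.0767 and 0.111 in RPMI8226 CO. Without contact THY1 lay between 0 and 0.0629 RPKM in MM.1S libraries, and it reached at most 0.0669 in RPMI8226. PDGFRB, a stromal growth factor receptor, stayed at 0.249 RPKM or below in every library. The part of HS5 RNA in the levels of the members in CO was not tested.

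A member entered the test when its mean RPKM over the libraries of a line was at least 1, which 22 of the 43 members did in MM.1S and 18 in RPMI8226, 15 of them in both lines. Levels were tested with limma within each line, and a call needed both an adjusted p below 0.05 and a change of more than 1.5-fold. Of these, 18 in MM.1S and 13 in RPMI8226 passed the filter through CO alone and so had to differ between CO and the other conditions, and their counts are given as a description. In MM.1S, 20 of 22 members were called higher in CO than in TSW and 0 lower, against 0.374% and 0.0394% of all genes tested. At an unadjusted p under 0.05 there were 21 higher and 0 lower, and voom called 20 and 0. CO vs MONO had 19 members higher and 0 lower in MM.1S, against 7.13% and 4.65% of all genes. Unadjusted counts were 20 and 2, voom gave 19 and 0, and without replicate 1 of MONO the counts were again 19 and 0. TSW vs MONO had 1 member higher and 1 lower in MM.1S, where 6.48% and 4.16% of all genes were called. Members without a PET in MONO and TSW could not be called in this comparison, so the member counts cannot be set against those shares. Voom called 2 higher and 3 lower there, quantile normalization 1 and 3, and the fit without replicate 1 of MONO 1 and 3.

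In RPMI8226, 13 of 18 members were called higher in CO than in TSW and 0 lower, against 1.9% and 2.39% of all genes tested (unadjusted 17 and 0, voom 14 and 0). The split of all genes in this comparison, 196 higher and 247 lower, became 249 and 173 with quantile normalization. CO vs MONO had 15 members higher and 1 lower in RPMI8226, against 16.4% and 22.9% of all genes. Without replicate 2 of CO, in which 15 of 21 silent members with more than 3 PETs in CO of both lines were higher than in replicate 1, the calls fell from 13 to 6 in CO vs TSW and from 16 to 8 in CO vs MONO, because 7 and 8 members no longer passed the filter. TSW vs MONO had 2 members higher and 2 lower, where 14.5% and 17.9% of all genes were called. Here too, members without a PET in MONO and TSW could not be called. Called higher in both lines were 12 members in CO vs TSW, and 1 member, CAV1, was called lower in TSW than in MONO in both. The share of all genes called in both lines was not computed, so these counts are a description.

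Members with a mean of at least 1 RPKM over the MONO and TSW libraries of a line would pass the filter without CO. There were 4 of them in MM.1S (FN1, TIMP1, CAV1 and SPARC), of which 2, FN1 and SPARC, were called higher in CO than in TSW and 0 lower (unadjusted 3 and 0, voom 2 and 0). Their median log2 change was 0.65 beside -0.00 for all genes tested. The 5 in RPMI8226 (FN1, TIMP1, CAV1, TAGLN and CXCL8) gave 1 higher call and 0 lower in CO vs TSW (unadjusted 4 and 0, voom 1 and 0), with a median of 0.20 beside -0.04. For TSW vs MONO the medians were -0.41 in MM.1S, or -0.49 without replicate 1 of MONO, and 0.35 in RPMI8226, beside 0.01 and -0.08 for all genes. CXCL8 reached the mean of 1 RPKM in RPMI8226 through TSW alone. Log2 changes are on log2(RPKM + 1), which understates the change of genes near or under 1 RPKM.

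Collagens came first in number, with 11 members. COL1A2, a chain of type I collagen, had 0 PETs in all MONO and TSW libraries, and 10.8, 13.4 and 10.2 RPKM in the CO libraries of MM.1S and 4.05 and 5.85 in those of RPMI8226. COL3A1, the chain of type III collagen, also had 0 PETs without contact, with 8.96, 11.3 and 8.66 RPKM in MM.1S CO and 2.69 and 2.86 in RPMI8226 CO. Both genes were absent at this depth without contact and present in each CO library. MM.1S CO lay above RPMI8226 CO without overlap, although the lines were not tested against each other. CO was at least 293-fold higher than TSW for COL1A2 in MM.1S and at least 163-fold in RPMI8226, and at least 250-fold and 92.6-fold for COL3A1. COL1A1, the partner chain of COL1A2 in type I collagen, had transcript without contact. It had 0.15, 0.0707 and 0.0762 RPKM in MONO, 0.0709, 0.111 and 0.141 in TSW and 4.84, 6.37 and 5.18 in CO of MM.1S. In RPMI8226 it had 0.418 and 0.512 RPKM in MONO, 0.1 and 0.160 in TSW and 0.940 and 1.41 in CO. MONO of RPMI8226 was thus above TSW, and CO was above both in each line, 50.8-fold above TSW in MM.1S and 9.04-fold in RPMI8226.

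COL5A1, a type V collagen chain that sets fibril width, was expressed by MM.1S without contact. It had 0.717, 0.629 and 0.744 RPKM in MONO, 1.01, 1.26 and 1.16 in TSW, and 2.27, 2.51 and 2.12 in CO. The 3 conditions did not overlap, in the order MONO, TSW, CO. COL5A1 passed the filter only through CO, so its log2 change of 0.62 in CO vs TSW (SE 0.09), with 3 of 3 CO libraries above every TSW library, is given without a p-value. Its call was lost with quantile normalization (0.56) and without replicate 1 (0.58) or 3 (0.63) of TSW or replicate 1 (0.63) or 2 (0.57) of CO. From MONO to TSW COL5A1 changed by 0.34, short of the fold change threshold, and by 0.35 without replicate 1 of MONO, and its change was 0.64 with a pseudocount of 0.1 and 0.73 with voom. In RPMI8226 COL5A1 had 1 PET over the MONO and TSW libraries and 0.396 and 0.607 RPKM in CO. COL5A2, the other type V chain, lay between 0.0156 and 0.149 RPKM without contact in both lines, at 0.788, 1.04 and 0.846 in MM.1S CO and at 0.354 and 0.330 in RPMI8226 CO.

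COL6A1, a chain of the beaded filaments of type VI collagen, had 0 PETs without contact in MM.1S, where CO had 7.44, 6.48 and 5.10 RPKM. In RPMI8226 it had 0.0948 and 0.112 RPKM in MONO, 0.0638 and 0.0528 in TSW, and 2.60 and 4.51 in CO. CO was above every other library of its line, at least 126-fold over TSW in MM.1S and 60.9-fold in RPMI8226. COL6A2, its partner chain, had 5.45, 5.35 and 3.80 RPKM in MM.1S CO and 2.67 and 4.03 in RPMI8226 CO, with 1 PET in all MONO and TSW libraries of both lines together. COL6A3, the large chain of type VI collagen, had 9 PETs in MM.1S CO and 0 in RPMI8226 CO, so the chain levels of type VI collagen were far apart per length. COL12A1, a collagen on the surface of fibrils, reached 0.486, 0.417 and 0.420 RPKM in MM.1S CO and 0.274 and 0.354 in RPMI8226 CO. The basement membrane chains were low, with COL4A1 at 0.0995, 0.121 and 0.134 RPKM in MM.1S CO and 0.0786 and 0.0716 in RPMI8226 CO, and COL4A2 at 0.393 to 0.447 and at 0.352 and 0.272 RPKM. LOX, which crosslinks collagen, had 0.267, 0.126 and 0.237 RPKM in MONO, 0.0649, 0.0731 and 0.268 in TSW and 1.29, 1.75 and 1.51 in CO of MM.1S. In RPMI8226 LOX had 0.223 and 0.250 RPKM in MONO, 1.10 and 0.857 in TSW and 1.73 and 2.13 in CO. MONO and TSW overlapped in MM.1S, while in RPMI8226 the order MONO, TSW, CO held in every library. LOX passed the filter in RPMI8226 only through CO and dropped out without either CO library or with MONO and TSW alone, so its log2 change of 0.68 in TSW vs MONO (SE 0.12) is given without a p-value. In CO vs TSW its change was 0.56, 0.91 with a pseudocount of 0.1, 0.98 with voom and 0.65 without replicate 1 of TSW.

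The metalloproteinases were silent without contact. MMP1 (Entrez 4312), the interstitial collagenase, had 0 PETs in all 10 MONO and TSW libraries, 44.5, 46.9 and 41.0 RPKM in MM.1S CO and 35.1 and 53.2 in RPMI8226 CO. MMP3, stromelysin, which activates other proMMPs, had 12, 11.7 and 9.14 RPKM in MM.1S CO and 10.3 and 14.2 in RPMI8226 CO, with 1 PET in 1 TSW library of RPMI8226. The values of both genes in CO of the lines overlapped, and none of the libraries without contact came near them. MMP1 was at least 428-fold higher in CO than in TSW in MM.1S and at least 552-fold in RPMI8226. MMP3 was at least 94.3-fold higher in MM.1S and 827-fold in RPMI8226 (95% counting interval 148 to 32699), and the bound and the ratio rest on different floors and do not rank the lines. MMP2, a gelatinase, had 5.14, 6.02 and 4.79 RPKM in MM.1S CO and 4.44 and 4.68 in RPMI8226 CO, against 0 PETs elsewhere. MMP14, the membrane protease that activates proMMP2, had 4.54, 5.58 and 4.23 RPKM in MM.1S CO and 3.26 and 4.62 in RPMI8226 CO. In RPMI8226 MMP14 kept 0.0776 to 0.120 RPKM without contact, from 4 to 8 PETs per library, and in MM.1S 1 PET in 6 libraries.

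Protease inhibitors fell on both sides of the silence limit. TFPI2, a Kunitz inhibitor that stroma places in the matrix, was at 0 PETs without contact, at 18.4, 18.2 and 17.8 RPKM in MM.1S CO and at 15.7 and 22.4 in RPMI8226 CO. SERPINB2, the plasminogen activator inhibitor 2, was likewise at 0 PETs without contact, at 9.06, 10.1 and 10.8 RPKM in MM.1S CO and at 7.87 and 16 in RPMI8226 CO. The RPMI8226 replicates of SERPINB2 differed 2.03-fold, the widest gap upward in replicate 2 among the silent members. TIMP3, an inhibitor bound to the matrix, had 1 PET in 1 CO library of MM.1S and 0 elsewhere. TIMP1, the soluble inhibitor of most MMPs, was expressed by both lines in every condition. In MM.1S it had 53.0, 41.9 and 36.1 RPKM in MONO, 38.5, 36.0 and 31.8 in TSW and 29.3, 37.2 and 29.2 in CO. In RPMI8226 it had 30.3 and 30.1 RPKM in MONO, 35.9 and 41.8 in TSW and 41.7 and 44.1 in CO. The conditions overlapped in MM.1S, whereas in RPMI8226 MONO lay below TSW and CO, and TSW and CO overlapped. The log2 change of CO vs TSW was -0.15 in MM.1S (SE 0.15, adjusted p = 0.998) and 0.14 in RPMI8226 (SE 0.08, adjusted p = 0.227), so TIMP1 was not called. Against MONO the lines went opposite ways, with -0.43 for CO in MM.1S (SE 0.15, adjusted p = 0.0448, with 1 of 3 CO libraries inside the MONO range). Without replicate 1 of MONO this change was -0.29 (limma, adjusted p = 0.084). Both values were short of the fold change threshold and not called. In RPMI8226 CO vs MONO TIMP1 changed by 0.49 (SE 0.08, adjusted p = 0.000345, 2 of 2 CO libraries above MONO), short of the fold change threshold. TIMP1 passed it with median-of-ratios scaling (0.60) and quantile normalization (0.63). Per length, in RPKM, MMP1 lay above TIMP1 in each CO library of MM.1S and overlapped it in CO of RPMI8226.

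FN1 (Entrez 2335), fibronectin, the glycoprotein that cells assemble into fibrils and bind through integrins, was the member with the highest level in any library. In RPMI8226 it had 3990 and 4310 RPKM in MONO, 1678 and 1962 in TSW and 2007 and 2169 in CO. MONO lay above TSW and CO without overlap, and CO lay just above TSW. FN1 ranked 5 and 4 among all genes by RPKM in the MONO libraries, 24 and 23 in TSW and 20 and 19 in CO, and its PETs numbered 286010 to 586706 per library. FN1 fell by 1.19 on the log2 scale in TSW vs MONO (SE 0.09, adjusted p = 1.13e-06, lower in 2 of 2 TSW libraries) and by 0.99 in CO vs MONO (SE 0.09, adjusted p = 3.09e-06, lower in 2 of 2 CO libraries). In CO vs TSW its change of 0.20 was not called (SE 0.09, adjusted p = 0.115). MM.1S had 1.59, 3.79 and 3.38 RPKM in MONO, 2.37, 2.55 and 2.48 in TSW and 17.7, 19.9 and 14.5 in CO. Here TSW lay within the MONO range, and every CO library was above both. TSW vs MONO was not called, at a log2 change of -0.13, or -0.40 without replicate 1 of MONO, the lowest MONO library. The log2 change of CO vs TSW was 2.40 (SE 0.20, adjusted p = 6.63e-05, higher in 3 of 3 CO libraries), and that of CO vs MONO was 2.27 (SE 0.20, adjusted p = 1.78e-05), or 1.99 without replicate 1 of MONO. The spread between RPMI8226 replicates of FN1 was larger in each condition than the whole FN1 level of MM.1S in CO.

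SPARC, a collagen-binding protein of the matrix, separated the lines. It had 3.46, 3.83 and 4.03 RPKM in MONO, 2.19, 2.36 and 2.29 in TSW and 4.86, 6.19 and 4.73 in CO of MM.1S. In RPMI8226 SPARC had 0 PETs without contact and 1.16 and 1.41 RPKM in CO. TSW was below MONO and CO above both in MM.1S without overlap. SPARC was called higher in CO than in TSW in MM.1S (log2 change 0.93, SE 0.11, adjusted p = 0.00135, 3 of 3 CO libraries above every TSW library). In TSW vs MONO its change of -0.54 (SE 0.11, adjusted p = 0.00465) missed the fold change threshold. It was called at -0.59 without replicate 1 of MONO, at -0.70 with a pseudocount of 0.1, at -0.60 with quantile normalization and at -0.73 with voom. THBS1, thrombospondin 1, which binds cells and activates latent TGF-beta, had 0.376, 0.826 and 0.880 RPKM in MONO, 0.142, 0.111 and 0.116 in TSW and 2.04, 3.26 and 2.17 in CO of MM.1S. Again TSW was lowest and CO highest, with no overlap between conditions, and TSW was at 0.178 of the MONO mean, or 0.144 without replicate 1 of MONO. THBS1 passed the filter only through CO and dropped out when any of the 3 CO libraries was left out, so its changes are given without p-values. In TSW vs MONO its log2 change was -0.58 (SE 0.15), -0.72 without replicate 1 of MONO, -1.76 with a pseudocount of 0.1 and -2.45 with voom. In CO vs MONO it was 1.04 (SE 0.15, 3 of 3 CO libraries above MONO), or 0.90 without replicate 1 of MONO. In RPMI8226 THBS1 had 0 to 0.0686 RPKM without contact and 0.290 and 0.936 in CO.

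THBS2, a thrombospondin of fibroblasts, had 0.243, 0.199 and 0.381 RPKM in MM.1S CO and 0.729 and 0.769 in RPMI8226 CO. TGFBI, a matrix adaptor that TGF-beta induces, had 2.97, 4.23 and 2.42 RPKM in MM.1S CO and 1.09 and 1.61 in RPMI8226 CO. The lines did not overlap for either gene, and THBS2 was the higher one in RPMI8226 and TGFBI in MM.1S. FBN1, fibrillin 1 of elastic microfibrils, was low but present in each library, with 0.161 to 0.298 RPKM without contact and 0.897, 1.11 and 1.19 in CO of MM.1S. In RPMI8226 FBN1 had 0.301 to 0.443 RPKM without contact and 0.535 and 0.724 in CO, above the other libraries by less than in MM.1S. GREM1, a secreted antagonist of BMPs, had 0 PETs without contact, 5.96, 6.61 and 6.28 RPKM in MM.1S CO and 3.10 and 5.07 in RPMI8226 CO. Small proteoglycans of collagen fibrils were scarce, with DCN (decorin) at 0.715, 1.01 and 0.677 RPKM in MM.1S CO and 0.772 and 1.15 in RPMI8226 CO. BGN (biglycan) reached at most 0.178 RPKM in CO, and LUM (lumican) had 7 PETs over the CO libraries of MM.1S and 2 over those of RPMI8226, so changes in LUM were not detectable at this depth.

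Contractile genes mark myofibroblast-like stroma. MYL9, a myosin light chain, had 0.185, 0.482 and 0 RPKM in MONO, 0.0586, 0.165 and 0.0636 in TSW and 3.48, 2.61 and 3.02 in CO of MM.1S, and in RPMI8226 it went from 0 PETs without contact to 0.973 and 1.24 RPKM in CO. TPM2, a tropomyosin, had 0 PETs without contact in MM.1S and 0.986, 0.994 and 1.52 RPKM in CO, and in RPMI8226 2 PETs in 1 TSW library and 0.779 and 0.44 RPKM in CO. CALD1, caldesmon, which binds actin, lay at 0.0277 to 0.191 RPKM without contact and at 0.508, 0.474 and 0.473 in CO of MM.1S. In RPMI8226 CALD1 had 0.0437 and 0.0859 RPKM in MONO, 0.265 and 0.152 in TSW and 0.467 and 0.657 in CO, in that order without overlap. TAGLN, transgelin, an actin-binding protein, had 1.07, 0.978 and 0.920 RPKM in MONO, 0.405, 0.718 and 0.881 in TSW and 0.997, 0.837 and 1.11 in CO of MM.1S. In RPMI8226 TAGLN had 1.54 and 1.13 RPKM in MONO, 2.36 and 2.44 in TSW and 3.78 and 2.91 in CO. TSW was the lowest condition of MM.1S and overlapped CO, while in RPMI8226 each step was upward without overlap, and CO vs MONO was called (log2 change 0.89, SE 0.13, adjusted p = 0.000111). ACTA2, smooth muscle actin, had 0.24, 0.0851 and 0.326 RPKM in MONO, 0, 0.107 and 0.0412 in TSW and 0, 0.0704 and 0.0391 in CO of MM.1S, and 0.0433 to 0.219 RPKM in RPMI8226. MONO of MM.1S thus lay above CO without overlap, from 3 to 8 PETs against 0 to 2, and the RPMI8226 conditions overlapped. Near-identical actin relatives make the values of ACTA2 uncertain.

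CAV1, the scaffold protein of caveolae, was expressed by both lines in each condition and was the member called in the same direction in TSW vs MONO of both. MM.1S had 17.4, 17.6 and 17.7 RPKM in MONO, 10.6, 10.2 and 9.95 in TSW and 14.6, 12.7 and 13.5 in CO. RPMI8226 had 28.1 and 28.6 RPKM in MONO, 17.4 and 17.7 in TSW and 20.5 and 19.5 in CO. In each line MONO was highest, TSW lowest and CO between them, and no condition overlapped another. The log2 change of TSW vs MONO was -0.72 in MM.1S (SE 0.09, adjusted p = 0.000144, lower in 3 of 3 TSW libraries), or -0.73 without replicate 1 of MONO, and -0.66 in RPMI8226 (SE 0.07, adjusted p = 1.96e-05, lower in 2 of 2). CO vs TSW changed by 0.38 in MM.1S (SE 0.09, adjusted p = 0.177) and by 0.18 in RPMI8226 (SE 0.07, adjusted p = 0.0922), which was not called.

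**Figure D3:**
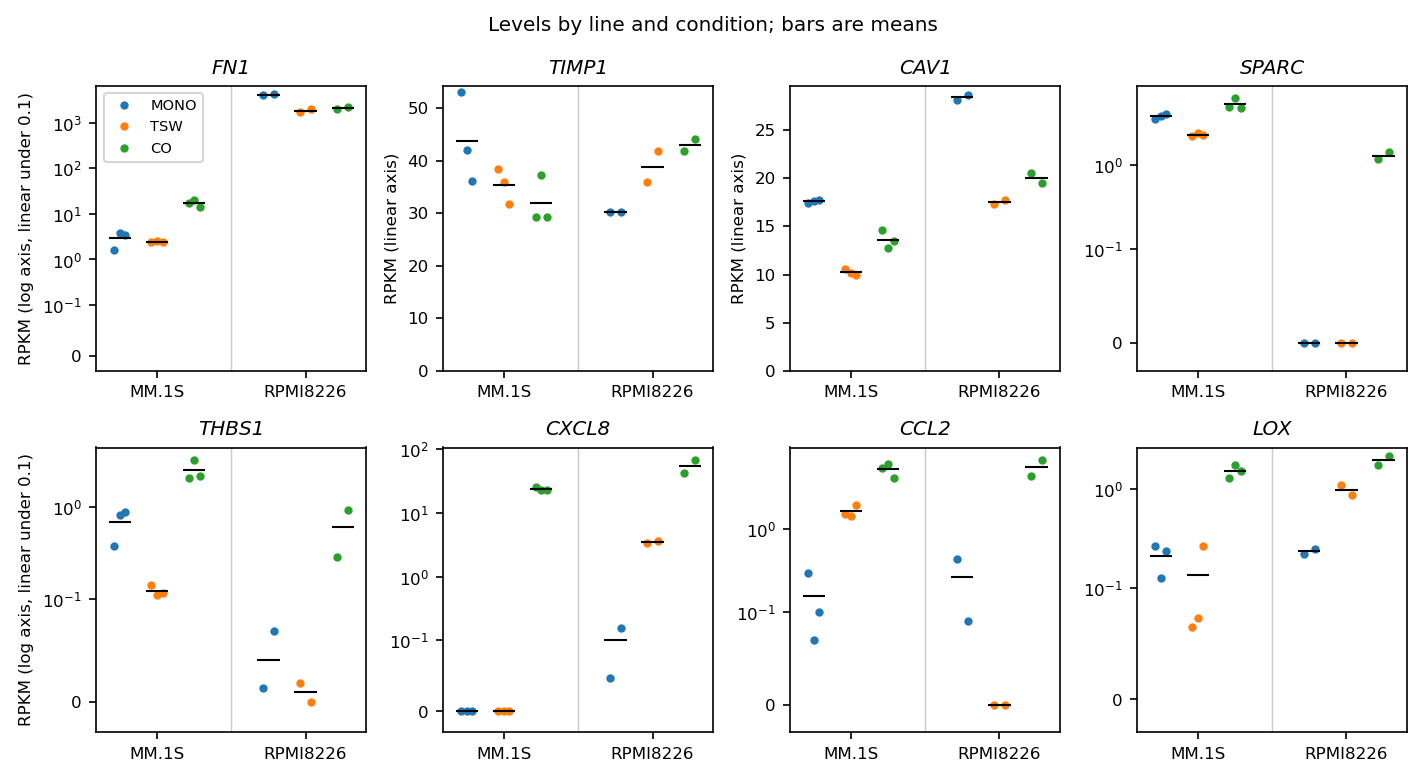
Points are libraries and bars are condition means of RPKM for 8 members with transcript without contact, with a linear axis for TIMP1 and CAV1 and a log axis that is linear under 0.1 for the others. CAV1 is highest in MONO and lowest in TSW in both lines, and FN1 is above 1600 RPKM in every RPMI8226 library and under 20 in every MM.1S library.

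Among the chemokines, CXCL8 (Entrez 3576), which attracts neutrophils through CXCR1 and CXCR2, had 0 PETs in all MONO and TSW libraries of MM.1S and 25.5, 23.0 and 22.7 RPKM in CO. In RPMI8226 it had 0.0470 and 0.158 RPKM in MONO, 3.42 and 3.66 in TSW, and 42.7 and 67.9 in CO. RPMI8226 thus had CXCL8 transcript in TSW, where MM.1S had none detectable at this depth, and CO was highest in both lines. CXCL8 was under 1 RPKM in each MONO library of RPMI8226 and passed the filter there through TSW and CO. Its log2 change of 2.04 in TSW vs MONO (SE 0.17, higher in 2 of 2 TSW libraries) is therefore given without a p-value. In CO vs TSW of RPMI8226 the log2 change was 3.60 (SE 0.17, adjusted p = 6.27e-07, higher in 2 of 2 CO libraries). The fold change of the means in RPMI8226 was 34.5 for TSW over MONO and 15.6 for CO over TSW. The former rests on 1 and 4 PETs in the MONO libraries and is imprecise. In MM.1S CO was at least 191-fold above TSW. CCL2, which recruits monocytes through CCR2, gave the reverse picture between the lines. MM.1S had 0.296, 0.0701 and 0.101 RPKM in MONO, 1.5, 1.4 and 1.93 in TSW and 5.39, 6 and 4.06 in CO. RPMI8226 had 0.428 and 0.0902 RPKM in MONO, 0 PETs in both TSW libraries, and 4.25 and 6.68 RPKM in CO. In MM.1S the conditions did not overlap in the order MONO, TSW, CO, and in RPMI8226 TSW was the lowest, from 5 PETs in MONO to 0. CCL2 also passed the filter of MM.1S only through CO, and without p-values its log2 change was 1.18 in TSW vs MONO (SE 0.14, higher in 3 of 3 TSW libraries), or 1.26 without replicate 1 of MONO, and 1.23 in CO vs TSW (SE 0.14, higher in 3 of 3 CO libraries). With MONO and TSW alone CCL2 was not tested. With a pseudocount of 0.1 the CO vs TSW change of CCL2 was 1.61 and was no longer called. CCL20, which attracts cells with CCR6, had 2 PETs in 1 TSW library of MM.1S, 6, 2 and 1 PETs in its CO libraries and 10 and 5 in those of RPMI8226.

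IL6 (Entrez 3569), the myeloma growth factor, had 0 to 3 PETs per library without contact in MM.1S and 2.53, 2.96 and 2.39 RPKM in CO. In RPMI8226 it had 0 PETs without contact and 6.44 and 6.25 RPKM in CO. IL6 was thus higher in CO in both lines, and the RPMI8226 values in CO lay above those of MM.1S without overlap. CO over TSW was 223-fold in MM.1S (95% counting interval 61.3 to 1843) and at least 153-fold in RPMI8226, where the ratio over 2 PETs and the bound over 3 PETs per library do not rank the lines. LIF, which signals through the same receptor subunit as IL6, had 0 or 2 PETs per library without contact in MM.1S and 0 in RPMI8226. In CO it had 0.269, 0.339 and 0.392 RPKM in MM.1S and 0.837 and 1.38 in RPMI8226. LIF in TSW was at or under 2 PETs in each library, so a low level there was not detectable at this depth.

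The order of the silent members in CO was similar in the lines. Over the 21 silent members with more than 3 PETs in CO of both, Pearson's r of log2 mean RPKM was 0.932 and Spearman's rho 0.905. The points here are genes and not replicates, and they share libraries and the HS5 line. MMP1 and TFPI2 ranked first and second in both lines, and the next ranks were COL1A2, MMP3 and SERPINB2 in MM.1S and MMP3, SERPINB2 and IL6 in RPMI8226. MMP3 and SERPINB2 did not differ beyond their spread in either line. The median ratio of RPMI8226 to MM.1S was 0.823, from 0.288 for COL3A1 to 3.33 for LIF. Of the 21 members, 13 had values in CO that did not overlap between the lines. The 3 of these higher in RPMI8226 were IL6 (2.42-fold), LIF (3.33-fold) and THBS2 (2.73-fold), and the 10 lower ones included COL1A2 (ratio 0.431), COL3A1 and TGFBI (0.422). The differences between the lines were not tested. The share of all genes without overlap between the lines was not computed, so the 13 of 21 is a description and not a trait of these members. Between the RPMI8226 CO replicates, 15 of the 21 members were higher in replicate 2, with a median ratio of 1.38, and IL6 was among the exceptions at 0.970.

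**Figure D4:**
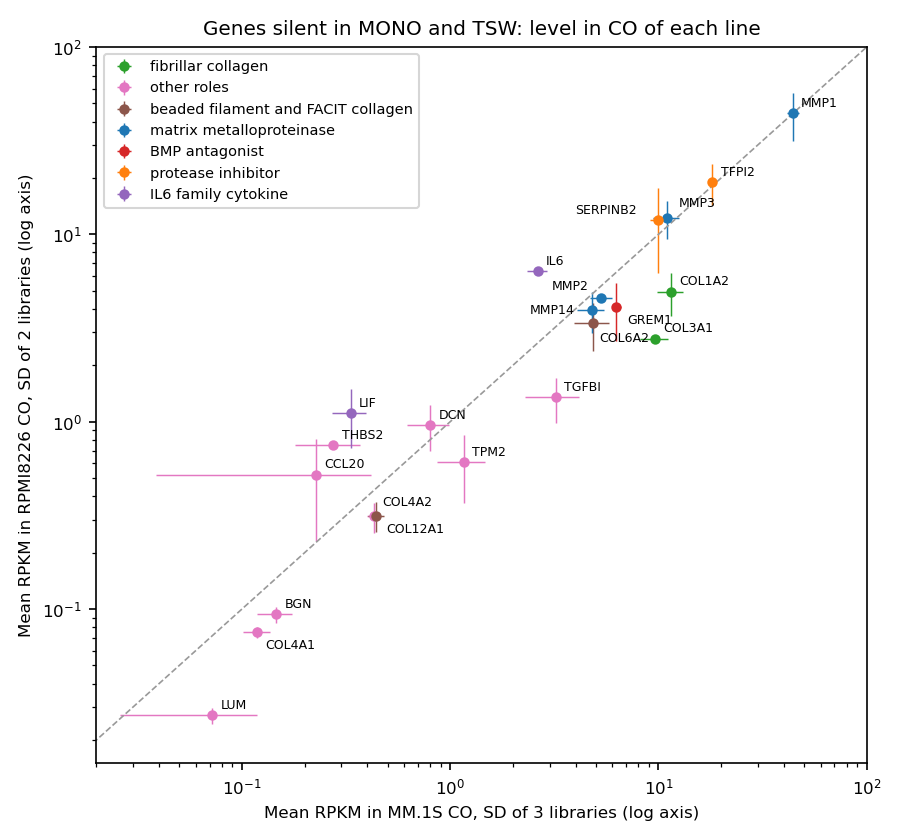
Points are silent members at their mean RPKM in CO of MM.1S and RPMI8226 on log axes, with bars of 1 SD and a dashed line of equal levels; members without a PET in RPMI8226 CO are left out. IL6, LIF and THBS2 lie above the line and COL1A2, COL3A1 and TGFBI below it.

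Other genes of the tables had the same pattern. By the silence limit, 3446 genes outside the group with at least 1 PET were silent in MONO and TSW of both lines, and 15 of them reached 1 RPKM in CO of both lines. The 10 with the highest mean over CO of both lines were CSF3, CXCL2, CCN1, CXCL3, CLDN11, TNC, PTGS2, IL1A, SERPINB7 and STC1. CSF3, a granulocyte growth factor, led them with 3.06 ± 0.749 RPKM in MM.1S CO and 7.75 ± 3.21 in RPMI8226 CO. It was below 11 of the 24 silent members in MM.1S CO by mean RPKM. All 3446 together summed to 43 RPKM in TSW and 143.8 in CO of MM.1S, and to 53.2 and 141.5 in RPMI8226. They were chosen for low levels in MONO and TSW, which favors a higher sum in CO, so these sums are a description. In CO the 24 silent members gave a sum close to that of the other silent genes.

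Related genes were read from 7 lists by their counts in CO vs TSW, where contact and carried-over HS5 RNA cannot be told apart, and in TSW vs MONO. As for the members, a list gene that passed the filter through CO alone had to differ in CO. Over all genes tested, 6.48% were called higher and 4.16% lower in TSW vs MONO of MM.1S and 14.5% and 17.9% in that of RPMI8226, and CO vs TSW had at most 2.39% in a direction. Of 28 other collagens and collagen-processing genes, 1 of 11 tested was called higher in CO than in TSW in MM.1S and 0 of 10 in RPMI8226, with 0 lower in both (limma; unadjusted 2 higher and 0 lower, and 2 and 1; voom 1 and 0, and 0 and 0), at medians of 0.03 and 0.00. Between TSW and MONO 1 was called higher in MM.1S, with and without replicate 1 of MONO, and 4 in RPMI8226, with 0 lower in both (unadjusted lower 2 and 1, voom 0 and 1), at medians of 0.21 and 0.36. The call in MM.1S was SERPINH1, the collagen chaperone, and those in RPMI8226 were COL18A1, P4HB, P4HA1 and P3H1. Of 29 other proteases and inhibitors, 1 of 10 was called higher in CO than in TSW in MM.1S and 1 of 13 in RPMI8226, with 0 lower (unadjusted 0 and 1, voom 0 and 0), at medians of -0.00 and 0.20. TSW vs MONO gave 1 higher and 0 lower of these in MM.1S (unadjusted 2 and 1, voom 1 and 0; without replicate 1 of MONO 1 and 1), and 6 higher and 1 lower in RPMI8226. MMP13, a collagenase outside the group, had 3.95 and 2.66 RPKM in MONO, 139 and 99.3 in TSW and 168 and 144 in CO of RPMI8226. MMP13 was higher in TSW than in MONO of RPMI8226 (log2 change 4.80, SE 0.17, adjusted p = 5.88e-09, 2 of 2 TSW libraries above MONO), unlike the silent metalloproteinases of the group. It stayed at or under 0.0386 RPKM in MM.1S.

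Of 34 other stromal cytokines and growth factors, 2 of 9 were called higher in CO than in TSW in MM.1S and 7 of 12 in RPMI8226, with 0 lower (unadjusted 1 and 0, voom 0 and 0), at medians of 0.08 and 2.06, the latter 2.74 with genes at 0 taken at their bound. The 6 and 5 of these genes at 1 RPKM or above in MONO or TSW had medians of 0.01 and 0.07, and all calls were of the other genes. Their calls in MM.1S were IL1B and CSF3, which with CXCL2 and CXCL3 also led in RPMI8226, and IL1B had 9.89, 11.1 and 12.3 RPKM in MM.1S CO and 11.3 and 20.6 in RPMI8226 CO. TSW vs MONO gave 2 higher and 1 lower of them in each line, with the lower gene TGFB1 in both, and without replicate 1 of MONO MM.1S had 3 and 1. Median-of-ratios scaling gave 2 higher and 0 lower in RPMI8226. Of the 43 other stromal markers, 1 of 12 was called higher in CO than in TSW in MM.1S and 2 of 13 in RPMI8226, with 0 lower (unadjusted 1 and 2, voom 0 and 0), among them CCN1 in both, at medians of 0.08 and 0.17. Of these markers, 0 were higher and 3 lower in TSW vs MONO of MM.1S (unadjusted 1 and 4, voom 0 and 3; without replicate 1 of MONO 0 and 2), and 5 higher and 3 lower in RPMI8226. VIM, the intermediate filament of mesenchymal cells, which myeloma cells express too, was among the lower ones in MM.1S, with 54.6, 49.6 and 50.9 RPKM in MONO and 29.1, 30.2 and 31.1 in TSW.

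Of 23 receptors of matrix proteins, 0 of 13 were called in CO vs TSW in MM.1S and 0 of 12 in RPMI8226 (limma; unadjusted 1 higher and 1 lower, and 4 and 2; voom 0 and 0, and 2 and 0), at medians of 0.06 and 0.15. In TSW vs MONO 2 were higher and 2 lower in MM.1S, 1 and 2 with quantile normalization and 0 and 3 without replicate 1 of MONO, and 7 higher and 0 lower in RPMI8226 (unadjusted 9 and 0, voom 7 and 0). ITGA5, which pairs with ITGB1 as the fibronectin receptor, rose in RPMI8226, where FN1 fell, from 2.49 and 3.35 RPKM in MONO to 10.5 and 10.3 in TSW (log2 change 1.55, SE 0.11, adjusted p = 9.93e-07, 2 of 2 TSW libraries above MONO). CD44, the hyaluronan receptor, fell in MM.1S from 69.2, 97.4 and 96.8 RPKM in MONO to 50.2, 52.0 and 47.1 in TSW (log2 change -0.79, SE 0.13, adjusted p = 0.00141, 3 of 3 TSW libraries below MONO; -0.95 without replicate 1 of MONO). Of 11 receptors of the group's cytokines, 2 were tested in MM.1S and 3 in RPMI8226, and 0 were called in CO vs TSW (limma; unadjusted 0 higher and 1 lower, and 2 and 1; voom 0 in both). Between TSW and MONO 0 were called in MM.1S (unadjusted 2 higher and 0 lower, voom 1 and 0), also without replicate 1 of MONO, and 1 in RPMI8226, which was CCR2. CCR2, the receptor of CCL2, had 25.3 and 26.0 RPKM in MONO, 159 and 156 in TSW and 172 and 181 in CO of RPMI8226, the line with 0 CCL2 PETs in TSW.

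Of 14 myeloma markers, 0 of 12 were called in CO vs TSW in MM.1S and 0 of 10 in RPMI8226 (limma; unadjusted 0 higher and 5 lower, and 3 and 5; voom 0 in both), at medians of -0.13 and -0.11. The purity of the sorted cells was not tested by these counts. In TSW vs MONO 3 were higher and 4 lower in MM.1S, 3 and 3 without replicate 1 of MONO, and 6 higher and 2 lower in RPMI8226. SDC1, the plasma cell marker CD138, stayed within 143 to 184 RPKM in MM.1S and within 70.4 to 98.7 RPKM in RPMI8226 in every condition. TNFRSF17, the maturation antigen BCMA, was lower in TSW than in MONO in every library of both lines, with log2 changes of -1.80 in MM.1S, or -1.63 without replicate 1 of MONO, and of -3.50 in RPMI8226. CD38, the marker of the sort, was at 38.4 to 65.0 RPKM in MM.1S, and in RPMI8226 it rose from 16 and 16 in MONO to 49.6 and 42.0 in TSW (log2 change 1.46, SE 0.09, adjusted p = 2.21e-07, 2 of 2 TSW libraries above MONO).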

How the data were processed

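The authors deposited one table per line with log2(RPKM + 1) plus 0.0001 for 20468 RefSeq genes, made from reads assigned to hg38 genes with featureCounts of Subread (version not given in the labels). The design had assumed plain RPKM, so the offset was subtracted and the logarithm undone to obtain RPKM. Whole numbers of PETs and effective lengths were recovered for 100% of the values above 0, within 0.002 PETs plus 1e-06 of the value. They served for depths, lower bounds and voom, which was run as an alternative and not as the main test.

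Genes with a mean of at least 1 RPKM in a line, 10153 in MM.1S and 10319 in RPMI8226, were tested with limma 3.58.1 (trend, R 4.3.3) on log2(RPKM + 1), with the 3 conditions of a line in 1 fit. Each library was scaled to its own PETs, and tests stayed within a line. A call needed a Benjamini-Hochberg adjusted p under 0.05 over all genes of the comparison and a fold change over 1.5.

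The members and lists were chosen with earlier results of these data known. All members were named. From each list, THY1, PDGFRB, VIM, SDC1, CD38 and TNFRSF17 could be named in every case, and otherwise up to 4 called genes per comparison and direction with the largest change. Outside the lists, the 10 silent genes with the highest mean RPKM in CO over both lines were named. RefSeq was matched by Entrez ID for 20407 genes, and the promoters of members were matched by Entrez ID too. Python 3.11.15, numpy 2.4.6, pandas 2.3.3, scipy 1.17.1 and matplotlib 3.10.9 were used.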

Additional observations from a re-analysis of the deposited data

Results flagged for a closer look

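For 3 members every library of a condition lay on one side of the other condition in MM.1S and on the opposite side in RPMI8226, and the differences are of mean RPKM. TAGLN in TSW vs MONO differed by 1.06 RPKM in RPMI8226 and by -0.321 RPKM in MM.1S, or -0.281 without replicate 1 of MONO. In MM.1S TAGLN did not pass the filter and was not tested. Its nearest libraries there were replicate 3 of TSW at 0.881 RPKM (18 PETs) and replicate 3 of MONO at 0.920 (19 PETs). The RPMI8226 log2 change of TAGLN, 0.55, was short of the fold change threshold. It was called with a pseudocount of 0.1 (0.81), median-of-ratios scaling (0.59) and voom (0.86). FN1 in CO vs MONO differed by -2062 RPKM in RPMI8226 and by 14.4 RPKM in MM.1S, or 13.8 without replicate 1 of MONO. CCL2 in TSW vs MONO differed by -0.259 RPKM in RPMI8226 and by 1.46 RPKM in MM.1S, or 1.53 without replicate 1 of MONO. The RPMI8226 value rests on 4 and 1 PETs in MONO and 0 in TSW, at least 1.18-fold lower, and it was not called (log2 change -0.32), though it was with a pseudocount of 0.1 (-1.66) and with voom (-2.76). The difference between the lines was not tested in any of these cases, and the share of all genes with such opposite orders was not computed.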

How the results depend on the processing

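Of 1280 recomputations of 74 called fold changes of members, 1274 kept the call and direction, 6 lost the call and 0 reversed. Only 11 of the 74 belong to members that would pass the filter without CO, and members that passed through CO alone had to differ in CO, so these counts mostly follow from the filter. The 6 were COL5A1 in CO vs TSW of MM.1S with quantile normalization and without 4 single libraries, and CCL2 in CO vs TSW of MM.1S with a pseudocount of 0.1. Leaving out a library ended no other call of a member that was still tested. It added calls in TSW vs MONO for THBS1 (without replicate 1 of MONO or of TSW) and SPARC (without replicate 1 of MONO) in MM.1S and for TAGLN in RPMI8226 (0.67 without replicate 1 of MONO), and in CO vs TSW for LOX in RPMI8226 (0.65 without replicate 1 of TSW). IL6 in MM.1S and COL3A1 in RPMI8226 were called in CO vs TSW and CO vs MONO where leaving out a MONO or TSW library let them pass the filter.

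Counts of called members moved with the filter. At a mean of at least 5 RPKM they were 4 for CO vs TSW, 4 for CO vs MONO and 1 for TSW vs MONO in MM.1S, and 3 for CO vs TSW and 4 for CO vs MONO in RPMI8226, because fewer genes were tested. In RPMI8226 CO vs TSW had 23 without a filter and 24 at 0.1 RPKM, and CO vs MONO had 26 with either. For TSW vs MONO in MM.1S the 2 calls became 5 with a pseudocount of 0.1, with voom and without a fold change threshold, and 4 with quantile normalization, and the cause was not tested. They became 1 with only the 2 conditions compared, because CCL2 no longer passed the filter.

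With each library left out in turn, the counts ranged from 16 to 21 for CO vs TSW, 16 to 20 for CO vs MONO and 2 to 4 for TSW vs MONO (4 without replicate 1 of MONO) in MM.1S. In RPMI8226 they ranged from 6 to 15, 8 to 17 and 3 to 5, with 6 and 8 without replicate 2 of CO.

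For the summed RPKM of the silent members, MM.1S CO had 152.8 with a silence limit of 0.5 RPKM and 91.3 without the member with the highest level, and RPMI8226 CO had 79.4 without it.

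With the replicate block the counts were 20, 19 and 2 in MM.1S and 13, 16 and 4 in RPMI8226, as without it. Correlations of deviations between samples with the same number ran from -0.380 to 0.286 in MM.1S, where samples did not all correlate best with their own number, and from 0.164 to 0.271 in RPMI8226. The labels do not say what a shared number stands for. With 2 or 3 libraries per condition the tests had little power for small changes, and values near the floor of 3 PETs carry little information.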
